A study of Mus musculus with 8 samples.

Results

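Circadian clock transcripts were examined in hypothalamus RNA of high gainers and low gainers to ask whether the 2 pools differed in clock phase. The 10 genes were chosen by name: Per1, Per2, Per3, Cry1, Cry2, Clock, Arntl (also called Bmal1), Nr1d1, Nr1d2 and Dbp. A gene entered where a probe named that gene alone, which held for 9 of the 10 genes with 1 probe each, among 14411 such probes and 33012 probes in all. Expression of Per3 was not analysed here. The high gainers were male C57BL/6J mice, an inbred strain, that gained much weight on the diets, and the low gainers were males of the same strain that gained little. All mice of both groups passed from low-fat chow to a high-fat diet as young adults. They ate the high-fat diet for 6 weeks, then a low-fat one for 2 weeks, then the high-fat one for 6 weeks more. The paper describes this schedule with the same chow, restricted below earlier intake, in the 2 low-fat weeks. RNA of 20 mice was combined for each group and measured 4 times, on separate arrays. Since these are technical replicates, every p-value below sets the difference between 2 pools against the spread between arrays, and variation among mice does not enter it.

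The mammalian clock is a loop of transcription. CLOCK and ARNTL, a pair of basic helix-loop-helix proteins, switch on the Per and Cry genes from DNA elements called E-boxes, and the PER and CRY proteins then repress that pair. The same activators drive Nr1d1, Nr1d2 and Dbp; the products of Nr1d1 and Nr1d2 (REV-ERB alpha and beta) repress Arntl through elements called ROREs, and DBP activates genes with D-boxes. In rhythmic tissue Arntl transcript therefore peaks at about the opposite time of day from Dbp and the Nr1d genes. In the hypothalamus the suprachiasmatic nucleus holds the master pacemaker, and other hypothalamic nuclei have clocks of their own. The mice were housed under a light/dark cycle, and the clock time at which tissue was taken is not given in the sources used here.

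Stretches near annotated transcription starts are printed to show the letters of such elements where they occur in these genes. They come from the RefSeq promoter table of GRCm38.p6, which covered 9 of the 10 genes (not Per2) with 13 windows of 250 bases before and 50 after a start. Each is written 5′ to 3′ on the strand of the gene. Capitals mark an E-box in Cry1 and Per1, an E′-box read on the opposite strand in Nr1d1, and the core of a RORE in Arntl.
Cry1, chr10:85185082-85185141, minus strand: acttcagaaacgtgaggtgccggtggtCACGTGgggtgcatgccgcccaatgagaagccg
Per1, chr11:69098756-69098815, plus strand: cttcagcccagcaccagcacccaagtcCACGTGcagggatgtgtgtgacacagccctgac
Nr1d1, chr11:98775378-98775437, minus strand: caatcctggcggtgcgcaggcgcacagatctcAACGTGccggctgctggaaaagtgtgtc
Arntl, chr7:113207529-113207558, plus strand: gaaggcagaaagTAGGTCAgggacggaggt

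Counted from the start, with -1 the last base before it, the first capital lay at -60 in Cry1, -166 in Per1 and -28 in Nr1d1, and at base 31 after the start in Arntl. Both strands were searched for 4 elements. The E-box CACGTG was found in windows of 2 members (Cry1 and Per1) and in 7.15% of all 32851 promoter windows. The E′-box CACGTT was found in 3 members (Cry1, Cry2 and Nr1d1) and in 4.68% of all windows. The D-box, as TTATGTAA or TTACGTAA, was found in Per3 alone among the members and in 1.06% of all windows. The RORE core, as TAGGTCA or TGGGTCA, was found in Arntl alone among the members and in 6.45% of all windows. The windows of Dbp, Nr1d2 and Clock held none of these letters, which says nothing of elements elsewhere in those genes. These matches are letters in a window, not measured binding, and 2 of 13 member windows with an E-box and 1 of 13 with a RORE core are small counts from which nothing is read.

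One array, the second of the low gainer pool, stood apart from all others and is given separately. Its log2 intensities correlated with the mean of the others at r = 0.239, against 0.967 to 0.990 for the other 7 arrays. Between 13657 and 16873 probes had a value on each of these 7 arrays. A value on all 7 was present for 11169 probes, which were fitted together. Of these, 3 rose and 0 fell in the high gainer pool at an adjusted p of 0.05 by limma, the pituitary hormone transcripts Gh, Prl and Cga. The median log2 difference of all 11169 probes was -0.0024.

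Of the 9 clock probes, 3 had a value on all 7 arrays (Dbp, Nr1d2 and Arntl), 2 had a value on enough arrays for a fit with missing values (Nr1d1 and Cry1), and 4 had a value on at most 2 of the 7 arrays (Per1, Per2, Cry2 and Clock). Among all probes that name 1 gene, 43.9% had a value on all 7 arrays and 22.3% on 1 to 3 of them. Probes with a value on 1 to 3 arrays were dim, with a median intensity of 0.181, where probes with a value on all 7 had a median of 1.57. The 4 sparse members therefore carry no fold change below.

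**Figure D1:**
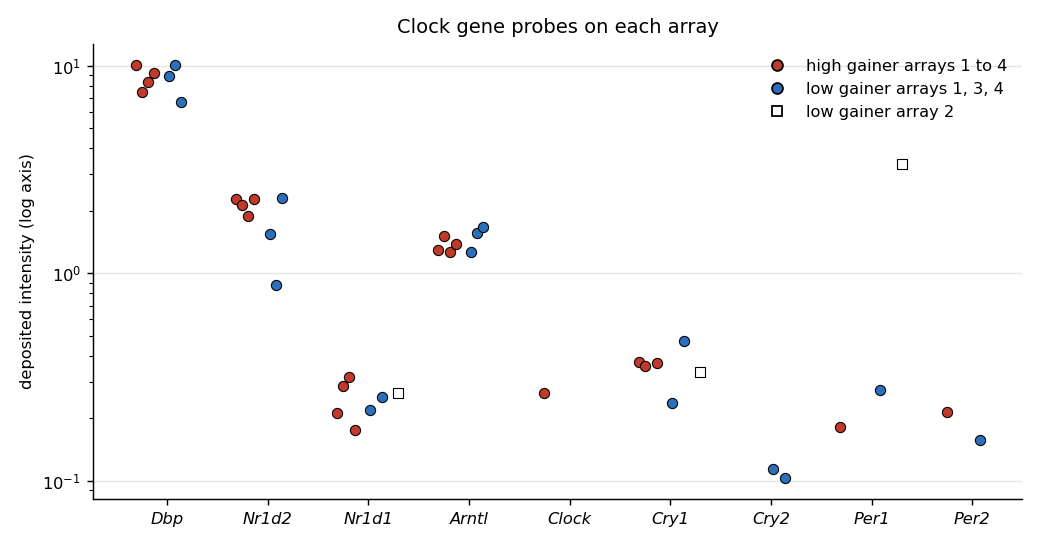
Deposited intensity on a log axis for the 9 clock gene probes, 1 point per array with a value; red points are high gainer arrays 1 to 4, blue points low gainer arrays 1, 3 and 4, and open squares low gainer array 2. Red and blue points of Dbp, Nr1d2 and Arntl overlap, and Per1 on low gainer array 2 stood at 3.38.

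None of the clock genes that could be tested was called in either direction. Of the 3 members with a value on all 7 arrays, 0 were called at an adjusted p of 0.05 by limma, where 0.0269% of all 11169 probes were called. None of the 3 had an unadjusted p under 0.05, where 6.48% of all probes did, and for none of them did the groups lie apart without overlap, where 4.77% of all probes did. The fit with missing values covered 13335 probes with a value on at least 3 high gainer and 2 low gainer arrays. It called 0 of 5 members, with 0.0225% of all its probes called, and 0 of the 5 had an unadjusted p under 0.05 by limma, against 760 of its 13335 probes. Counts of 0 among 3 or 5 genes are near those shares, and nothing is read from them.

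Among the output genes, Dbp, a transcription factor of the PAR bZIP family whose transcript is among the most strongly cycling of the clock, had intensities of 10.1, 7.44, 8.38 and 9.28 on high gainer arrays 1 to 4. On low gainer arrays 1, 3 and 4 it had 8.94, 10.1 and 6.68. The groups overlapped, with the lowest value on low gainer array 4. The log2 difference was 0.08 (SE 0.18), a 1.06-fold ratio (high over low) with a 95% interval from 0.811 to 1.37 and an adjusted p of 0.960 by limma. Arrays of the low gainer pool alone differed from each other by 1.52-fold and those of the high gainer pool by 1.35-fold.

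Nr1d2, the gene of the nuclear receptor REV-ERB beta, had the largest difference of the 3 members. Its intensities were 2.29, 2.13, 1.88 and 2.28 on high gainer arrays 1 to 4, and 1.55, 0.877 and 2.32 on low gainer arrays 1, 3 and 4. The high gainer arrays lay close together, at 2.15 ± 0.190 (SD, n = 4). The low gainer arrays spread more widely, at 1.58 ± 0.720 (SD, n = 3), with array 4 level with the high gainer arrays and array 3 the lowest of all. The log2 difference was 0.51 (SE 0.25), a fold of 1.43 with a 95% interval from 0.991 to 2.06, an unadjusted p of 0.0554 and an adjusted p of 0.756 by limma. An absolute difference above this one was found in 6.94% of all 11169 probes. The value depended on single low gainer arrays. The log2 difference was 0.20 without low gainer array 3 and 0.80 without low gainer array 4, and the lowest adjusted p in any alternative was 0.288.

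Low gainer array 3, which gave the lowest Nr1d2 value, also held the lowest summed intensity of oligodendrocyte markers. The sum over 7 markers lay between 58.9 and 92.9 for the high gainer pool, against 18.9 to 60.1 for the low gainer pool, with the 18.9 on array 3. The largest part of each sum was Mbp, at 42.1 to 66.7 on high gainer arrays and 9.68 to 36.1 on low gainer arrays. The markers did not all move together, since Mog, Cldn11, Mal and Trf were highest of the 7 arrays on low gainer array 4. Low gainer array 3 held the lowest value of the 7 for 17.6% of all probes and the highest for 23.7%. It was not alone in this, since low gainer array 4 held the lowest for 24.6% and the highest for 22.3%. The low gainer arrays measured the same RNA pool, so these differences among them lie between arrays and not in the tissue. The part of these features in the Nr1d2 value was not tested.

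Nr1d1, the gene of REV-ERB alpha and close relative of Nr1d2, had intensities of 0.211, 0.287, 0.316 and 0.176 on high gainer arrays 1 to 4. On low gainer arrays 1 and 4 it had 0.219 and 0.252, both within the range of the high gainer arrays, and array 3 had no value. These intensities were dim, at percentiles 10.7 to 23.3 of the values on their arrays. Low gainer array 3 had the fewest probes with a value of the 7 arrays, 13657. In the fit with missing values the log2 difference was -0.05 (SE 0.33), with a 95% interval of the fold from 0.581 to 1.61 and an adjusted p of 0.989 by limma. The direction turned in 4 of 14 alternatives.

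Of the activators, Arntl, which encodes the partner of CLOCK, had the smallest residual spread of the 3 fitted members. Its intensities were 1.30, 1.51, 1.27 and 1.38 on high gainer arrays 1 to 4, against 1.27, 1.56 and 1.67 on low gainer arrays 1, 3 and 4. Low gainer arrays 3 and 4 lay above all high gainer arrays, and low gainer array 1 lay level with the lowest of those. The log2 difference was -0.15 (SE 0.19), a fold of 0.903 with a 95% interval from 0.678 to 1.20 and an adjusted p of 0.924 by limma. The residual SD was 0.139 on the log2 scale, and 92.9% of all probes had a larger one. Clock, the gene of the other activator, had a value on 1 of 7 arrays, 0.266 on high gainer array 2. A single value on 1 of 4 high gainer arrays and on 0 of 3 low gainer arrays was found for 7.13% of probes that name 1 gene.

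Of the repressors, Cry1, which encodes a cryptochrome that blocks CLOCK and ARNTL, had intensities of 0.373, 0.358 and 0.369 on high gainer arrays 1, 2 and 4. Its values were 0.237 and 0.473 on low gainer arrays 1 and 4. The 3 high gainer values agreed within 1.04-fold and lay between the low gainer values, which differed by 1.99-fold. These intensities lay at percentiles 18.2 to 39.2 of the values on their arrays. In the fit with missing values the log2 difference was 0.10 (SE 0.37), with a 95% interval of the fold from 0.608 to 1.89 and an adjusted p of 0.981 by limma. Cry2, the second cryptochrome, had values of 0.115 and 0.103 on low gainer arrays 1 and 4 and a value on 0 of 4 high gainer arrays. That pattern was found for 0.867% of probes that name 1 gene. Both Cry2 values were dim, at percentiles 2.66 and 4.14 of the values on their arrays.

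The period genes were at the limit of what the arrays measured. Per1, a period gene induced by light and by glucocorticoids, had a value of 0.181 on high gainer array 1 and 0.275 on low gainer array 3. Per2, its relative in the negative limb, had 0.215 on high gainer array 2 and 0.158 on low gainer array 3. With 1 array of each pool, neither gene allows a difference to be given.

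On low gainer array 2, which is given apart, 3 of the 9 members had a value. Nr1d1 was at 0.264 and Cry1 at 0.336, both within the range of the other arrays. Per1 was at 3.38, above its values of 0.181 and 0.275 on the 2 other arrays that had one. Dbp, Nr1d2 and Arntl, each with a value on every other array, had none there. On that array 59.1% of 10011 probes lay above, and 29.7% below, all their values on the other arrays. Gapdh, a glycolytic enzyme, was at 1.00 there, against 84.9 to 117.0 on the others.

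**Figure D2:**
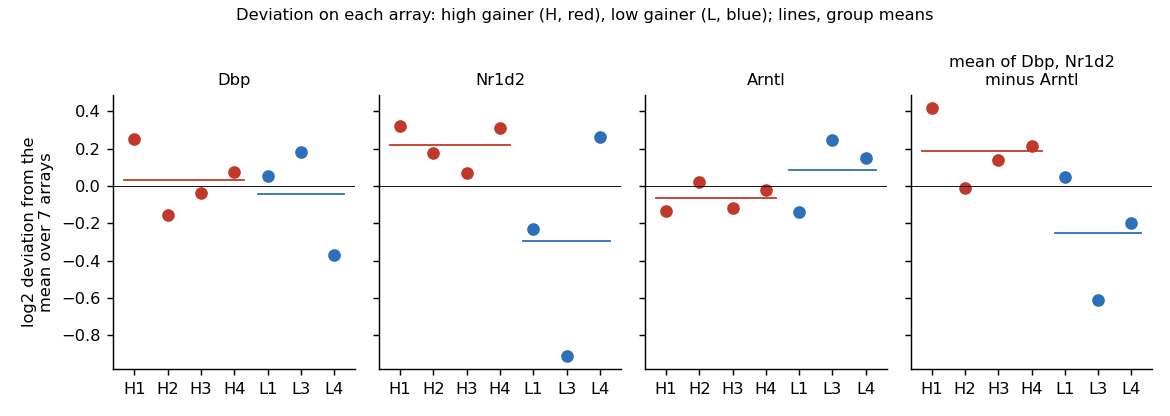
Log2 deviation from the mean over 7 arrays for Dbp, Nr1d2 and Arntl and for the mean of Dbp and Nr1d2 minus Arntl, 1 point per array; red points are high gainer arrays, blue points low gainer arrays, and lines group means. The last panel spans -0.01 to 0.42 in red and -0.61 to 0.05 in blue.

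Because Arntl and the output genes peak at about opposite times in rhythmic tissue, their balance was also described for each pool. A balance at a single clock time, not given here, does not fix a phase. The arrays of a group measured the same pool, so the spread among them is between arrays and not one of phase. For each array the mean deviation of Dbp and Nr1d2 was set against that of Arntl, since the other output genes and Npas2, a relative of Clock, lacked values. The balance was 0.42, -0.01, 0.14 and 0.21 on high gainer arrays 1 to 4, and 0.05, -0.61 and -0.20 on low gainer arrays 1, 3 and 4 (log2). The groups overlapped, since low gainer array 1 lay above high gainer array 2. The mean was 0.19 ± 0.18 (SD, n = 4) for the high gainer pool, against -0.25 ± 0.33 (SD, n = 3) for the low gainer pool, a difference of 0.44. The largest deviation of a single gene was Nr1d2 on low gainer array 3, at -0.91. Without that array, with Nr1d1 then entering the output genes, the difference was 0.19. No test was run on this balance, which rests on 3 probes.

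**Figure D3:**
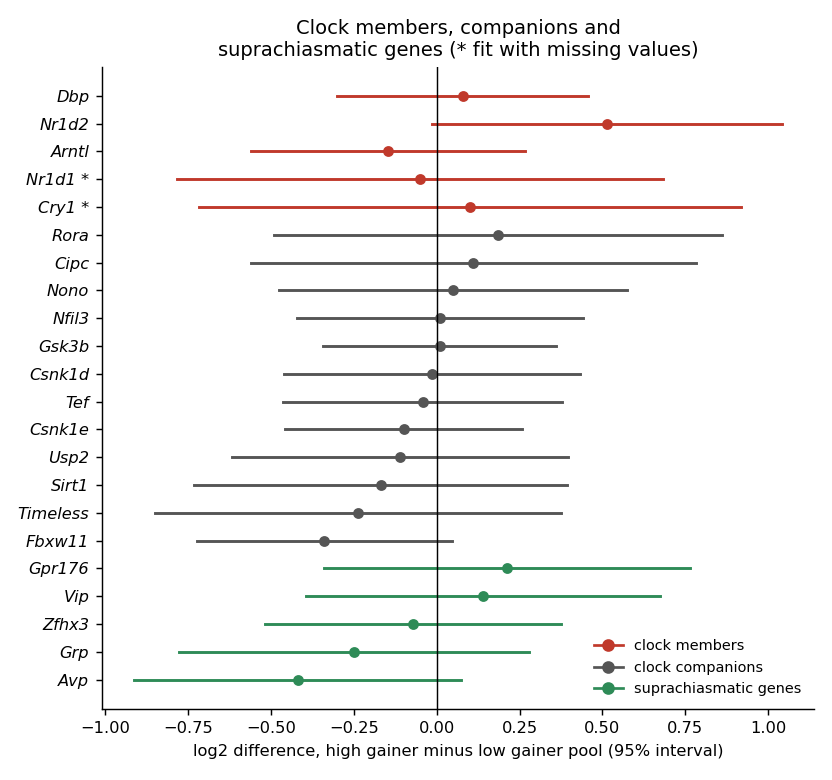
Log2 difference, high gainer minus low gainer pool, with 95% intervals by limma, for 5 clock members (red, an asterisk marks the fit with missing values), 12 clock companions (grey) and 5 suprachiasmatic genes (green). Every interval spans 0, from Nr1d2 at 0.51 to Avp at -0.42.

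No other tested gene of the clock pathway passed the test. Of 25 companions, 18 had a probe and 12 had a value on all 7 arrays, of which 0 were called higher and 0 lower by limma at an adjusted p of 0.05 and 0 had an unadjusted p under 0.05. For 0 of the 12 did the groups lie apart. Among all 11169 probes 0.0269% were called, 6.48% had an unadjusted p under 0.05 by limma and 4.77% lay apart. Counts of 0 among 12 are near those shares, and nothing is read from them. The log2 differences of the companions ran from -0.34 to 0.18, with 5 above 0 and 7 below and a median of -0.03. The largest in size, with the brightest probe standing for each gene, was Fbxw11, an F-box protein that helps mark PER proteins for breakdown, with 5.71, 6.48, 6.06 and 5.003 in high gainers, against 5.95, 8.21 and 8.24 on low gainer arrays 1, 3 and 4. Low gainer array 1 lay within the high gainer range, and the adjusted p was 0.784 by limma. The next 5 companions in order of p had unadjusted p-values of 0.421 to 0.644 by limma. Of these, Timeless was at a log2 difference of -0.24, Sirt1, a deacetylase, at -0.17, Csnk1e, a casein kinase that phosphorylates PER, at -0.10 and Usp2, a deubiquitinase, at -0.11. Rora, the gene of a nuclear receptor that activates Arntl at ROREs, was at 0.18, with a 95% interval from -0.49 to 0.86. Their adjusted p by limma lay between 0.916 and 0.958.

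Factors that share DNA elements with Dbp did not pass it either. Tef, another PAR bZIP factor, averaged 7.37 ± 1.72 (SD, n = 4) in high gainers and 7.55 ± 0.89 (SD, n = 3) in low gainers. Nfil3, a repressor that competes at D-boxes, averaged 1.76 ± 0.17 in high gainers (SD, n = 4), against 1.76 ± 0.23 in low gainers (SD, n = 3). The log2 differences were -0.04 for Tef and 0.01 for Nfil3, with 95% intervals from -0.46 to 0.38 and from -0.42 to 0.44. Gsk3b, a kinase of clock proteins, had a log2 difference of 0.01 on its brighter probe and 0.66 on its dimmer probe. The dimmer probe did not stand for the gene in the counts above. Its 95% interval ran from 0.07 to 1.24 (1.58-fold), its unadjusted p was 0.0307 and its adjusted p 0.752 by limma, and its values overlapped between the pools. Bhlhe40, an E-box repressor, had values of 0.879, 0.589 and 0.371 on high gainer arrays 1, 2 and 4, and 0.324 and 0.762 on low gainer arrays 1 and 4. These values overlapped.

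Genes of the suprachiasmatic nucleus were in part measured. Of 13 such genes, 11 had a probe and 5 had a value on all 7 arrays, of which 0 were called and 0 had an unadjusted p under 0.05 by limma. Their median log2 difference was -0.07, with 2 above 0 and 3 below. Among all 11169 probes 0.0269% were called and 6.48% had an unadjusted p under 0.05 by limma. Vip, the peptide of the neurons that receive light input, was at 0.697, 0.719, 0.837 and 0.768 in high gainers, against 0.867, 0.665 and 0.497 on low gainer arrays 1, 3 and 4. Avp, a peptide of the shell of that nucleus and of neurosecretory cells, was at 1.02, 1.35, 0.986 and 0.802 in high gainers, against 1.09, 1.61 and 1.45 in low gainers. Both overlapped, and their log2 differences were 0.14 for Vip and -0.42 for Avp, with an adjusted p by limma of 0.948 for Vip and 0.790 for Avp. Grp, a gastrin-releasing peptide, was at -0.25, Gpr176, an orphan receptor of the pacemaker, at 0.21, and Zfhx3, a transcription factor, at -0.07. Lhx1, a factor that defines the nucleus, had a value on 0 of the 7 arrays. Prok2, Prokr2, Vipr2 and Six6 had values on some of them. How much of the pacemaker the dissection held was thus not well measured, and in a tissue pool fewer cells of a type and less RNA per cell cannot be told apart.

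Transcripts that follow temperature, corticosterone or neuronal activity through the day were also set beside the clock genes. Of 9 temperature-linked genes 2 were tested and had log2 differences of 0.07 (Dnajb1, a heat shock cochaperone) and 0.03 (Hsph1, a heat shock protein). Of 9 glucocorticoid targets 4 were tested, and those with the smallest p were Errfi1, a feedback inhibitor of the EGF receptor, at -0.31 and Tsc22d3, which encodes GILZ, at 0.32. Of 12 immediate early genes 8 were tested, with 4 above 0 and 4 below. Junb, a transcription factor of the AP-1 family, was at -0.79 with a 95% interval from -1.67 to 0.08, and Nr4a1, an activity-induced nuclear receptor, at -0.11. In these 3 lists 0 genes were called and 0 had an unadjusted p under 0.05 by limma. The shares among all 11169 probes were 0.0269% and 6.48%. The lists had medians of 0.05, 0.02 and -0.03.

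**Figure D4:**
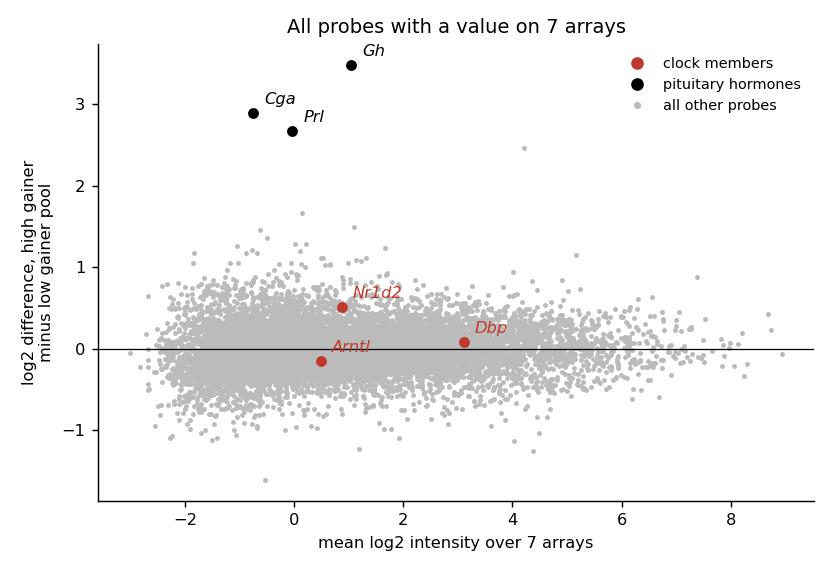
Log2 difference, high gainer minus low gainer pool, against mean log2 intensity for 11169 probes, with the 3 clock members tested in red, 3 pituitary hormones in black and all other probes in grey. Dbp, Nr1d2 and Arntl lie within the grey cloud at 0.08, 0.51 and -0.15, while Gh, Cga and Prl lie between 2.67 and 3.48.

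Markers of tissues and cells that the dissections could hold were read on the same arrays, and 3 pituitary hormone transcripts rose in the high gainer pool. Gh, Prl and Cga, hormone transcripts of the anterior pituitary, summed to 8.30 to 10.4 in high gainers, against 0.837 to 1.38 in low gainers, and these 3 were the tested genes of a list of 16. Pomc, made in pituitary and arcuate nucleus, had 0.735 to 1.48 on high gainer arrays and 0.208 on low gainer array 4. Other genes of that list with values in both pools overlapped: Lhb averaged 0.379 in high gainers and 0.365 in low gainers, Pax7 0.161 in high gainers and 0.170 in low gainers, and Lhx3 0.980 in high gainers and 0.834 in low gainers, over the arrays with a value. Tbx19 had values on 2 high gainer arrays, Tshb and Hesx1 on 1 each, and all 3 on 0 low gainer arrays. A value on 1 of 4 high and 0 of 3 low gainer arrays was found for 7.13% of probes that name 1 gene. All 7 tested of 9 oligodendrocyte markers had a difference above 0, with a median of 0.52. Both tested red cell genes were below 0, Hba-a1 at -1.14 and Alas2 at -0.16. Their summed intensities were 8.47 to 14.4 in high gainers, against 17.6 to 36.2 in low gainers. Nearly all of that sum was Hba-a1, and Alas2 overlapped between the pools. Of 18 hypothalamic genes 11 were tested, 10 of them below 0 with a median of -0.23, and Ghrh, Nkx2-1 and Rax had no value on the 7 arrays. Medians were 0.05 for 4 astrocyte, -0.28 for 5 choroid plexus, 0.16 for 3 microglia and 0.16 for 5 cortex and striatum genes. Outside the pituitary list 0 of these markers were called by limma. An unadjusted p under 0.05 by limma was found for 2 of 7 oligodendrocyte, 2 of 11 hypothalamic, 1 of 2 red cell and 1 of 5 cortex and striatum genes. It was found for 6.48% of all probes. The groups did not overlap for 2 oligodendrocyte genes and 2 cortex and striatum genes. The same held for 1 gene each of the red cell, hypothalamic and choroid plexus lists, and for 4.77% of all probes. The part of these markers in the clock gene values was not tested.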

How the data were processed

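Hypothalamus RNA pools of high gainers and low gainers were measured on 1-colour Applied Biosystems mouse arrays read by chemiluminescence. The deposited values are intensities on a linear scale. The paper states that signal intensities were normalized across arrays by a quantile method. The deposited values did not share 1 distribution. On the 7 compared arrays the highest value ran from 370 to 635 and the median from 0.714 to 0.990. Many cells are empty, and which step emptied them is not given in the sources used here. Neither background nor detection signals were used here. The number of arrays limits the precision.

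Groups came from the sample titles. The members and gene lists were chosen with earlier results of these data known, and so was the choice to keep low gainer array 2 apart. Log2 intensities of the 11169 probes with a value on the other 7 arrays were quantile normalized here. They were tested by lmFit and eBayes (with a trend) of limma 3.58.1, run under R 4.3.3, with Benjamini-Hochberg adjustment over all probes. A second fit kept missing values. The brightest probe stood for a gene. Levels of different probes were not compared. The fit was tested on simulated data.

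The platform annotation named 1 gene for 14411 probes and several for 247, and 18354 are unnamed here. Of the first, 14402 matched RefSeq (GRCm38.p6) by gene identifier, with 0 symbols changed. Named genes were all members, up to 6 companions and 6 suprachiasmatic genes by smallest p, 2 per other list and 4 pituitary genes. Tef, Nfil3, the second Gsk3b probe, Bhlhe40, Lhb, Pax7, Lhx3, Hba-a1 and Alas2 were chosen after their values were seen. So were Cirbp, Rbm3, Mbp, Mog, Cldn11, Mal, Trf and genes named for lacking values.

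The alternatives were median centring, cyclic loess, deposited values as they are, the brightest 50% of probes, a pseudocount of 0.180, no trend, array weights, all 8 arrays, the replicate number as a block, leaving out each array, the methods' t-test and all probes of a gene.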

Additional observations from a re-analysis of the deposited data

Results flagged for a closer look

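Per1 on low gainer array 2, an array outside the comparison, had an intensity of 3.38, where the 2 other arrays with a value had 0.181 on high gainer array 1 and 0.275 on low gainer array 3. On that array 59.1% of 10011 probes lay above all their values on the other arrays. Among 25 sets of 4 high gainer values examined for 1 array standing apart, 0 did, where chance gives about 1 in 20.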

How the results depend on the processing

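Under every alternative that could be run, 0 members and 0 companions were called. Nr1d2 kept its direction, from 0.20 without low gainer array 3 to 0.80 without low gainer array 4. Dbp lay near 0 and turned to -0.0082 with array weights; leaving out 1 array gave -0.085 (without low gainer array 4) to 0.19. Nr1d1 turned to 0.045 with median centring and 0.035 on the deposited values, and leaving out 1 array gave -0.13 to 0.12. The median of the members, 0.08, was 0.24 over the 2 members among the brightest 50% of probes, and leaving out 1 array gave -0.085 to 0.14. The balance of output genes against Arntl was 0.19 to 0.60 with 1 array left out; the 0.19, without low gainer array 3, also holds Nr1d1 among the output genes. Over all probes, 171 were called without low gainer array 1, 9 with the replicate block and 0 by the methods' t-test after Benjamini-Hochberg adjustment, against 3.

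Deviations from the group mean correlated at -0.20, 0.13 and -0.14 between same-numbered arrays of the pools. Between arrays of different number they ran from -0.52 (high gainer array 3 with low gainer array 4) to 0.45 (high gainer array 3 with low gainer array 1). Whether arrays shared a run was not tested. With the replicate block the log2 differences were 0.14 for Dbp, 0.53 for Nr1d2, -0.18 for Arntl and -0.32 for Nr1d1. With all 8 arrays, 0 members had a value throughout, so the complete fit gave no member value. Empty values leave Per1, Per2, Cry2 and Clock without a difference, and 1 pool a group leaves the spread between mice unmeasured.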
